A study of Mus musculus with 14 samples.

Results

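The genes described here are 34 genes of the unfolded protein response and of protein folding in the endoplasmic reticulum (ER), taken by their symbols from a table of 43548 genes. They were measured in livers of C57BL/6 mice whose Cul3 gene, which encodes the scaffold of a family of ubiquitin ligases, is flanked by loxP sites in every group. KO mice received an adeno-associated virus that expresses Cre recombinase from the TBG promoter, which is active in hepatocytes, so other liver cells kept the floxed gene. WT mice carried the same floxed gene and received the matching AAV-TBG-Null virus without Cre. The virus was given after 13 weeks on a Western diet (WD) or a control diet (CD), and the diet went on for 5 more weeks. The libraries number 4 for KO on WD, 4 for WT on WD, 3 for KO on CD and 3 for WT on CD. Nothing in the labels ties a library to an animal of its own, so the spread behind each p-value is that among libraries and may be technical.

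The ER folds secreted and membrane proteins, and a hepatocyte secretes large amounts of protein. When unfolded proteins build up there, 3 sensors in the ER membrane signal to the nucleus. ATF6 is cut into a transcription factor, IRE1 (gene Ern1) splices the Xbp1 transcript, and PERK (gene Eif2ak3) slows translation and thereby favours the transcription factor ATF4. The known targets of ATF6 and XBP1 are chaperones, disulfide isomerases and parts of ER-associated degradation. Targets of ATF4 include Ddit3 (CHOP), Trib3 and Ppp1r15a (GADD34). Several of these genes also respond to other stresses, since ATF4 is shared with amino acid shortage.

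The promoters of many of these genes carry an ER stress response element, CCAAT with CCACG 9 bases after it, to which NF-Y and ATF6 are known to bind. The element was defined on promoters of such genes, so its presence describes the members and is no finding of these libraries. RefSeq promoter windows of build GRCm38.p6, from 250 bases before to 50 bases after the gene start, matched 30 of the 34 members, and Manf, Hyou1, Atf6 and Derl1 had none. Searched on both strands, the element stood in 10 of the 30 members (33.3%) and in 37 of 27025 genes with such a window (0.137%). The matches are shown to describe these 10 members, which include chaperones and genes of other roles. Capitals mark the fixed letters, each match is read on the strand of its gene, and those that begin with CGTGG are the element on the opposite strand.
Hspa5, chr2:34772025-34772043, + strand: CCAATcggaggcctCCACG
Hsp90b1, chr10:86705638-86705656, - strand: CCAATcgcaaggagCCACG
Hsp90b1, chr10:86705533-86705551, - strand: CGTGGtgaggcacgATTGG
Dnajc3, chr14:118937827-118937845, + strand: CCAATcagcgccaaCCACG
Creld2, chr15:88819520-88819538, + strand: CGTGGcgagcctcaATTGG
Pdia6, chr12:17266491-17266509, + strand: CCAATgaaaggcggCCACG
Ero1lb, chr13:12565682-12565700, + strand: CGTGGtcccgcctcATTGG
Calr, chr8:84847075-84847093, - strand: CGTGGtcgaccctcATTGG
Canx, chr11:50325800-50325818, - strand: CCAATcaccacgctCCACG
Syvn1, chr19:6046532-6046550, + strand: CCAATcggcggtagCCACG
Derl3, chr10:75893242-75893260, + strand: CGTGGgacttccccATTGG

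The 250 bases before the start of Hspa5 and of Hsp90b1 are shown in full, because these genes encode the main HSP70 and HSP90 chaperones of the ER, of which Hsp90b1 was called on WD and Hspa5 was not. Capitals mark the whole ER stress response element.
Hspa5, chr2:34771840-34772089, + strand: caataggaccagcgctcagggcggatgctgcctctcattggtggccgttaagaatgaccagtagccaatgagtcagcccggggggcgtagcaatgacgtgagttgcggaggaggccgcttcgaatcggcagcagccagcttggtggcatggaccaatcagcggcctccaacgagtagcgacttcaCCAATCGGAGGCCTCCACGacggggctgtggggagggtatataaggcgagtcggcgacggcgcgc
Hsp90b1, chr10:86705445-86705694, - strand: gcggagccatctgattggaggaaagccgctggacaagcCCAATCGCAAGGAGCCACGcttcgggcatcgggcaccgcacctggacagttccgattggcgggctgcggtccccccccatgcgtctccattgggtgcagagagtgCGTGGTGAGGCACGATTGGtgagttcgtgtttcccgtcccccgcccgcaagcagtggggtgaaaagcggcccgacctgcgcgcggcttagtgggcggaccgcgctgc
Of the other motifs searched, the second ER stress response element, ATTGG with CCACG 1 base after it, stood in 2 of the 30 members, Herpud1 and Dnajb11 (6.67% against 0.0444% of all genes). The XBP1/ATF6 element TGACGTGG stood in 0 of 30, against 0.714% of all genes. The ATF4 element TGATGNAAN stood in 3 members, Atf3, Trib3 and Herpud1 (10% against 4.5%), and CCAAT alone, which the ER stress response elements contain, in 24 (80% against 41.1%). A match is a run of letters and was not tested as a binding site.

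RNA was read as tags near the 3' end of transcripts and deposited as FPKM, so a level is compared here between libraries of a gene and not between genes. The libraries held between 8600 and 9970 genes with at least 1 FPKM, and their read depth is unknown. By shared value steps of rarely detected genes they were split into 2 sets that the labels do not name. The number of sets was a setting of the clustering and no finding. Set 1 (8 libraries) held KO on WD 1, 2 and 4, WT on WD 3 and 4, and WT on CD 1, 3 and 4. Set 2 (6 libraries) held KO on WD 3, WT on WD 1 and 2, and KO on CD 1, 2 and 3. On CD, library set and genotype cannot be told apart, whereas on WD each genotype held both sets. The set differed in 758 of 10870 tested genes (6.97%), among them 3 members: Trib3 was higher in set 2 (log2 difference 0.93, adjusted p = 0.0185), and Ppp1r15a (-2.46, 0.00744) and Hsp90b1 (-0.52, 0.0496) were lower. Cul3 stood at 18.5 to 26.6 FPKM in KO on WD, 7.46 to 25.9 in WT on WD, 11.3 to 18.3 in KO on CD and 23.9 to 29.5 in WT on CD. No source used here names the deleted exons, and tags from the 3' end may fall beyond them, so Cul3 checks neither the deletion nor the labels. The summed FPKM of 6 hepatocyte markers ran from 4468 to 5859 in KO on WD, 4244 to 5689 in WT on WD, 5859 to 8053 in KO on CD and 4801 to 5254 in WT on CD. Cps1, a urea cycle enzyme, was the hepatocyte marker called for KO against WT on CD, with a log2 fold change of -0.99 (adjusted p = 0.0108). With library set as a term, no hepatocyte marker was called there. For WD against CD in WT, the log2 fold change of Cps1 was -1.30 (adjusted p = 0.00555), and -1.07 with that term (adjusted p = 0.0135). In KO against WT on WD no hepatocyte marker was called without that term, and with it Alb was higher (0.55, adjusted p = 0.0415).

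On WD, 5 of the 31 members that passed the filter on low values rose in KO against WT and none fell. They were Trib3, Hsp90b1, Ern1, Atf3 and Manf, from 5 different roles of the response. Hspa5, Xbp1, Atf4 and Ddit3 did not pass the test there. The share called among all 10870 tested genes was 7.01% in either direction and 6.01% upward. Members were called at adjusted p under 0.05 with limma on log2(FPKM + 1), and the filter asked for at least 1 FPKM in at least 3 libraries. Atf3 passed that filter through KO on WD alone and so had to differ, and without it 4 of 30 members rose. With library set as a term in the fit, 6 members rose on WD and the share of all genes was 7.75%. Within set 1 alone (KO 3, WT 2 libraries), 8 members rose and the share was 3.35%. Within set 2 alone, with 1 KO library, no member passed the test, 3 of 29 had an unadjusted p under 0.05, and log2 fold changes of Trib3, Manf, Ern1 and Hsp90b1 were 1.63, 1.79, 1.54 and 0.68. Of all 9225 genes tested in set 2 alone, 0.163% were called and 11.5% had an unadjusted p under 0.05. The median log2 fold change on WD was 0.34 over the 31 members and 0.23 over all tested genes. Median centring moved the all-gene median on WD to -0.06 and that of the members to 0.05, and the members called were then 4, all up, without Manf. After quantile normalization they were 5, all up, with P4hb (0.62, adjusted p = 0.0149) called and Manf (1.5, adjusted p = 0.0865) not. All-gene calls on WD were then 227 up and 230 down (4.20%) after median centring and 274 up and 246 down (4.78%) after quantile normalization, against 653 up and 109 down as deposited.

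**Figure D1:**
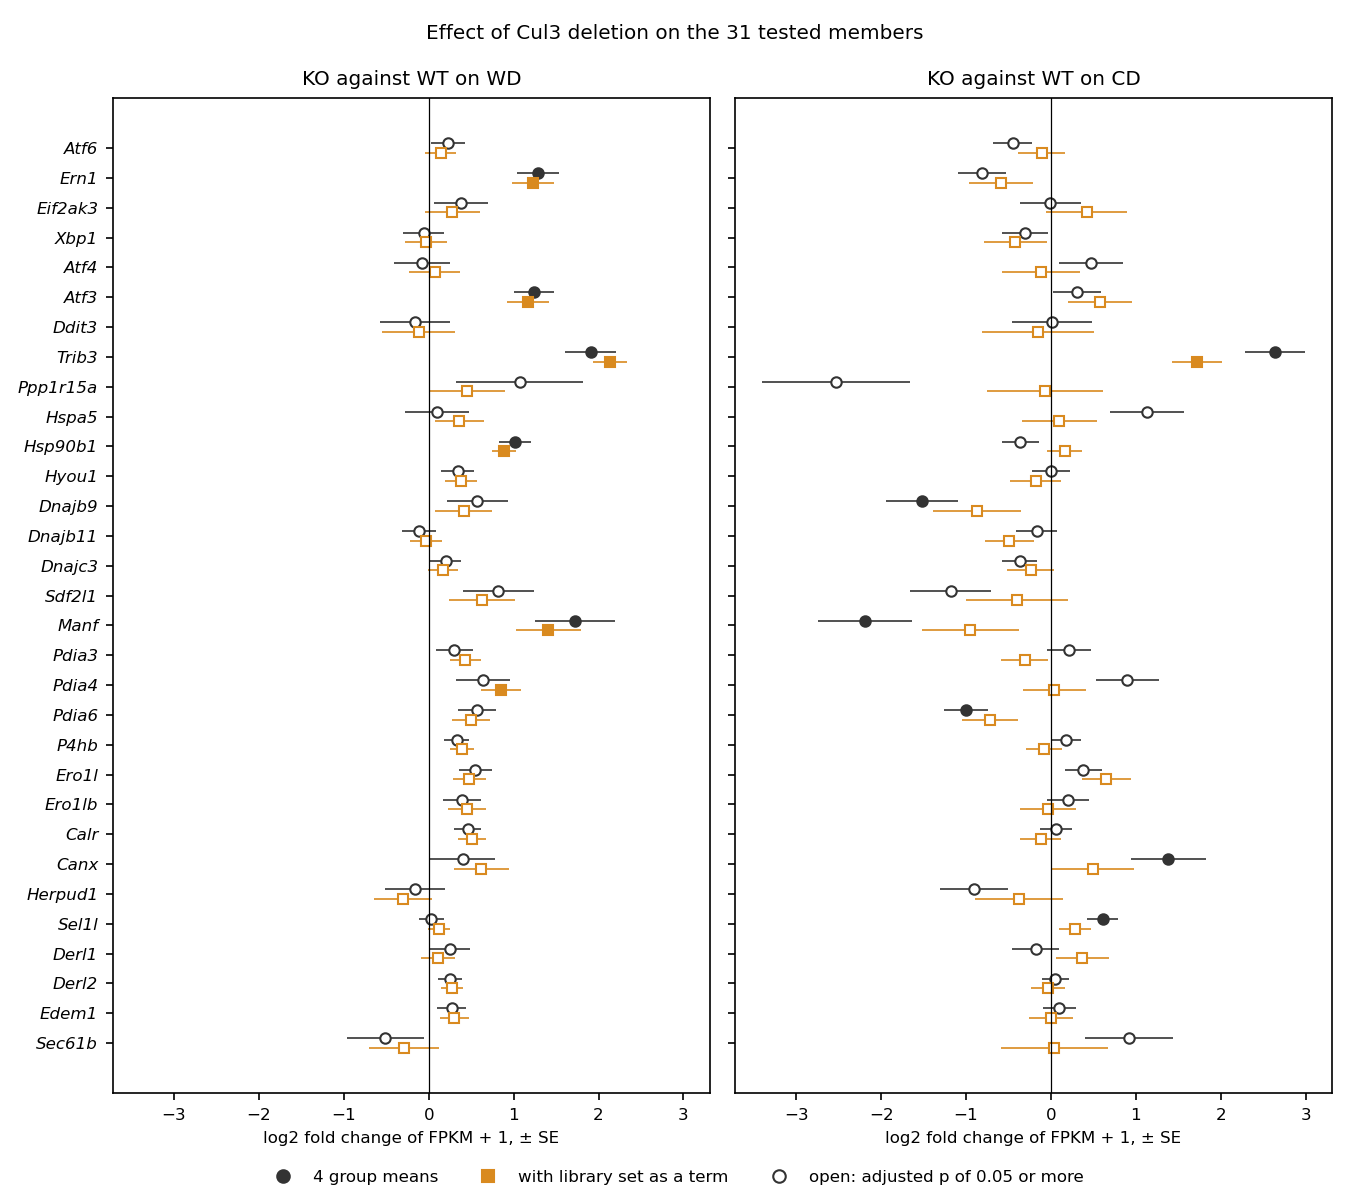
Log2 fold change of FPKM + 1, KO against WT, with its SE, for the 31 tested members on WD (left) and on CD (right); black circles are the fit of 4 group means, orange squares the fit with library set as a term, and filled symbols passed adjusted p under 0.05. On WD, 5 members are filled without the set term and 6 with it, all to the right of 0; on CD, 6 are filled without it and Trib3 alone with it.

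On CD, 6 of 31 members passed in KO against WT, with Trib3, Canx and Sel1l higher and Manf, Dnajb9 and Pdia6 lower. The share called among all tested genes was 15.0%, with 11.7% up and 3.35% down. With library set as a term Trib3 was the 1 member called, against 1.16% of all genes. Quantile normalization gave 5 calls, 1 up and 4 down, with Ern1 lower (-0.91, adjusted p = 0.0426) and Canx and Sel1l not called, and median centring called the same 5, against 10.3% of all genes after quantile normalization and 11.9% after median centring. The all-gene split after quantile normalization was 618 up and 506 down, against 1269 up and 364 down as deposited. The count of members called on CD was 2 without KO on CD 1, 2 without KO on CD 3, 2 without WT on CD 1, 1 without WT on CD 3, 3 without WT on CD 4 and 10 without WT on WD 2. In the same order, all-gene calls were 993, 591, 894, 678, 815 and 2466, against 1633 with all libraries. On CD a genotype effect and the library set cannot be told apart for any of the members called, Trib3 included.

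Among the sensors, Ern1 rose in KO on WD and Atf6 and Eif2ak3 did not pass the test in any comparison. Ern1 (ENSMUSG00000020715, chr11:106394650-106487852 of GENCODE M21, - strand), whose product IRE1 is both a kinase and the RNase that splices Xbp1, was at 11.3, 11.6, 12.5 and 13.3 FPKM in KO on WD, against 3.22, 4.10, 4.99 and 5.52 FPKM in WT on WD. It was at 1.69, 3.70 and 5.70 FPKM in KO on CD, against 5.64, 6.86 and 7.77 FPKM in WT on CD. Each KO library on WD lay above the libraries of the other groups, and on CD the genotypes overlapped at their edges. Its log2 fold change on WD was 1.29 ± 0.25 (SE; adjusted p = 0.00661), and 1.23 ± 0.25 with library set as a term (adjusted p = 0.0105). On CD it was -0.81 ± 0.28 (adjusted p = 0.0677).
Atf6 was at 6.06, 8.34, 4.38 and 5.01 FPKM in KO on WD, against 4.07, 4.51, 5.62 and 5.12 FPKM in WT on WD. On CD it was at 5.55, 3.98 and 3.52 FPKM in KO, against 5.91, 7.05 and 5.84 FPKM in WT. The genotypes overlapped on WD but not on CD, with log2 fold changes of 0.23 ± 0.20 on WD (adjusted p = 0.508) and -0.45 ± 0.23 on CD (adjusted p = 0.18).
Eif2ak3 was low throughout, at 0.624, 1.07, 0.702 and 1.87 FPKM in KO on WD, against 0.434, 0.168, 1.39 and 0.414 FPKM in WT on WD. In KO on CD it was at 0.234, 1.30 and 0.698 FPKM, against 0.340, 1.76 and 0.319 FPKM in WT on CD. The groups overlapped on both diets, 5 of the 14 libraries reached 1 FPKM, and no change was detectable at these levels.

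Of the transcription factors, Xbp1, Atf4 and Ddit3 did not pass the test on WD. Atf3 passed it, but it had passed the filter through KO on WD alone and so had to differ. Xbp1, whose spliced form drives chaperone and degradation genes, was at 10.8, 18.9, 15.2 and 8.08 FPKM in KO on WD, against 10.3, 16.1, 15.1 and 12.0 FPKM in WT on WD. On CD it was at 12.2, 11.5 and 12.5 FPKM in KO, against 18.9, 12.4 and 14.9 FPKM in WT. The ranges on WD lay over each other (log2 fold change -0.06 ± 0.24, adjusted p = 0.907), and a 3' tag does not tell spliced from unspliced Xbp1.
Atf4 was at 13.1, 7.73, 12.3 and 8.65 FPKM in KO on WD, against 8.20, 25.3, 6.66 and 9.67 FPKM in WT on WD. In KO on CD it was at 14.6, 13.1 and 11.6 FPKM, against 8.23, 7.65 and 12.2 FPKM in WT on CD. Library 2 of WT on WD stood far above the other WT libraries, and the log2 fold changes were -0.08 ± 0.33 on WD (adjusted p = 0.902) and 0.47 ± 0.38 on CD (adjusted p = 0.405). ATF4 is controlled chiefly through its translation, which RNA levels do not show.
Ddit3, the pro-death factor CHOP, was at 0.997, 1.26, 0.944 and 1.29 FPKM in KO on WD, against 0.432, 4.18, 1.60 and 0.634 FPKM in WT on WD. It was at 2.70, 1.46 and 0.312 FPKM in KO on CD, against 1.57, 2.21 and 0.431 FPKM in WT on CD. The genotypes overlapped on both diets, with log2 fold changes of -0.16 ± 0.41 on WD (adjusted p = 0.843) and 0.01 ± 0.47 on CD (adjusted p = 0.997). Ddit3 overlaps another annotated gene of the same name on its own strand, and Gm4189 and Mars on the opposite strand. No source used here says whether the counting used strand or how reads shared by such genes were assigned.
Atf3 (chr1:191170296-191218039, - strand), a stress-induced factor of the ATF family, was at 1.63, 3.58, 1.29 and 1.97 FPKM in KO on WD, and at 0.544, 0.283 and 0.341 FPKM and listed at 0 in the libraries of WT on WD. On CD, KO had 0.653 and 0.163 FPKM and 1 library listed at 0, and WT was listed at 0 in all 3 libraries. The KO libraries on WD were the only ones above 1 FPKM, so its p-values are no support for a rise. The log2 fold change on WD was 1.24 ± 0.24 (adjusted p = 0.00784), and 1.17 ± 0.25 with library set as a term (adjusted p = 0.013). With a pseudocount of 0.1 FPKM the adjusted p was 0.0513.

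Trib3, a pseudokinase induced by ATF4 and CHOP that restrains their activity, rose in KO on WD, and on CD the KO libraries, all of set 2, were higher than the WT libraries, all of set 1. Its gene spans chr2:152337422-152344032 on the - strand. It was at 16.4, 14.2, 21.2 and 14.7 FPKM in KO on WD, against 5.37, 7.12, 1.98 and 1.97 FPKM in WT on WD. The levels on CD were 29.7, 33.2 and 28.8 FPKM in KO, against 5.51, 3.78 and 3.12 FPKM in WT. KO libraries lay above WT libraries on either diet without overlap, and every KO library on CD lay above every KO library on WD. Its log2 fold change was 1.91 ± 0.30 on WD (3.76-fold, adjusted p = 0.00211) and 2.64 ± 0.35 on CD (6.25-fold, adjusted p = 0.000621).
With library set as a term these were 2.14 ± 0.20 on WD (adjusted p = 4.33e-05) and 1.72 ± 0.30 on CD (adjusted p = 0.0182). With quantile normalization added to the set term, the log2 fold change on CD was 1.37 ± 0.33 (adjusted p = 0.0966). On CD all KO libraries belonged to set 2, in which Trib3 was higher over all groups, and genotype and set cannot be told apart there. On WD the mean was 15.1 FPKM in the 3 KO libraries of set 1, against 1.98 FPKM in the 2 WT libraries of set 1. In set 2 it was 21.2 FPKM in the 1 KO library, against 6.24 FPKM in the 2 WT libraries, so KO was higher within each set. The KO effect did not pass the test of a difference between the diets (log2 difference, WD minus CD, -0.73 ± 0.46, adjusted p = 0.33; 0.43 ± 0.39 with library set as a term, adjusted p = 0.934).
Ppp1r15a, the phosphatase subunit that restores translation after PERK signalling, separated the libraries by set. It was at 61.6, 36.3, 15.6 and 51.5 FPKM in KO on WD, against 8.01, 3.16, 54.3 and 50.2 FPKM in WT on WD. On CD it was at 13.0, 19.0 and 3.52 FPKM in KO, against 65.8, 62.8 and 56.1 FPKM in WT. Every library of set 2 was at or below 19.0 FPKM and every library of set 1 at or above 36.3 FPKM. The log2 fold change on CD was -2.53 ± 0.87 (adjusted p = 0.0636), and with library set as a term it was -0.07 ± 0.68 (adjusted p = 0.981).

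**Figure D2:**
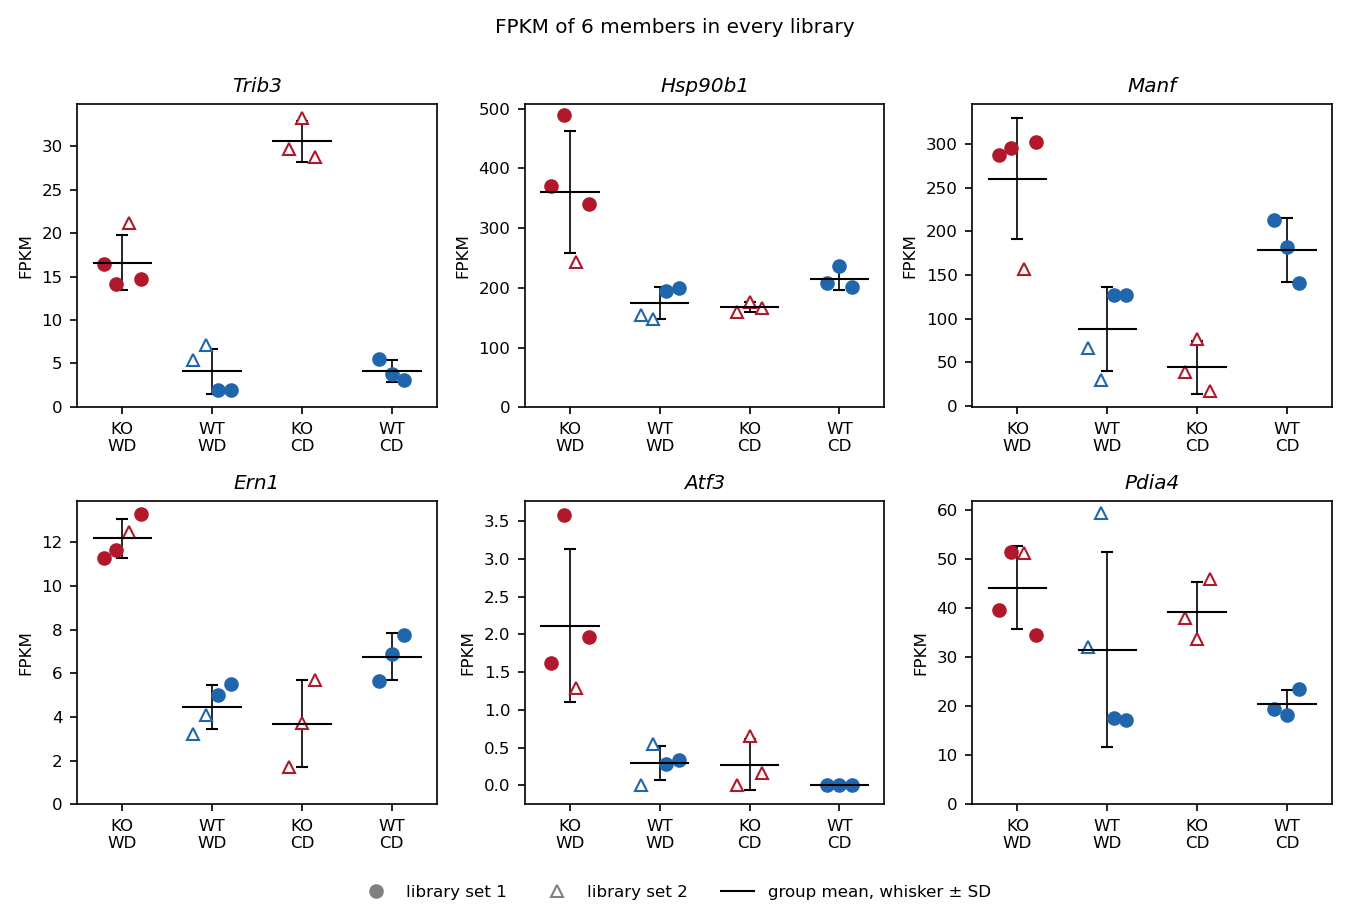
FPKM of Trib3, Hsp90b1, Manf, Ern1, Atf3 and Pdia4 in each of the 14 libraries by group, KO in red and WT in blue; filled circles are library set 1, open triangles set 2, and the line and whisker are the group mean ± SD. KO on WD lies above WT on WD for Trib3, Hsp90b1, Manf, Ern1 and Atf3. For Pdia4, WT on WD 2, of set 2, lies above the KO libraries on WD, and the other WT libraries on WD lie below them.

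Of the HSP70, HSP90 and co-chaperone genes, Hsp90b1 alone passed the test on WD, and these genes were not tested against each other. Hsp90b1 (chr10:86690209-86705509, - strand), the HSP90 of the ER (GRP94), was at 371, 490.0, 243 and 339 FPKM in KO on WD, against 154, 148, 195 and 199.8 FPKM in WT on WD. The levels on CD were 159.6, 176 and 166 FPKM in KO, against 207, 236 and 202 FPKM in WT. The KO libraries on WD lay above all 10 others, and the lowest of them was the set 2 library. As a log2 fold change the rise on WD was 1.02 ± 0.19 (2.02-fold, adjusted p = 0.00631), and 0.89 ± 0.14 with library set as a term (adjusted p = 0.00236).
Hspa5, the ER HSP70 (BiP) that holds the 3 sensors inactive, was at 305, 316, 441 and 307 FPKM in KO on WD, against 313, 848, 186 and 199 FPKM in WT on WD. It was at 389.6, 344 and 514 FPKM in KO on CD, against 216, 150.3 and 199 FPKM in WT on CD. The genotypes overlapped on WD, where the 2 WT libraries of set 2 were the high ones, and on CD they stood apart. The log2 fold changes were 0.10 ± 0.38 on WD (adjusted p = 0.896) and 1.13 ± 0.44 on CD (adjusted p = 0.09).
Within set 1 alone on WD, Hspa5 averaged 309 FPKM in 3 KO libraries and 192 FPKM in 2 WT libraries (log2 fold change 0.68 ± 0.17, adjusted p = 0.0724). In set 2 it was 441 FPKM in the 1 KO library and averaged 580.5 FPKM in the 2 WT libraries.
Dnajb9, a co-chaperone of BiP (ERdj4), was at 4.14, 6.05, 5.84 and 5.14 FPKM in KO on WD, against 2.44, 1.11, 5.29 and 5.81 FPKM in WT on WD. On CD it was at 2.26, 3.01 and 0.667 FPKM in KO, against 5.68, 6.41 and 9.50 FPKM in WT. It fell in KO on CD, by 1.52 ± 0.42 on the log2 scale (adjusted p = 0.0292), and with library set as a term the log2 fold change was -0.87 ± 0.52 (adjusted p = 0.494). On WD it was 0.57 ± 0.36 (adjusted p = 0.358).
Sdf2l1, which works with BiP and its co-chaperones, averaged 8.98 ± 3.54 FPKM in KO on WD and 5.04 ± 3.22 FPKM in WT on WD (SD, n = 4 each). This gave a log2 fold change of 0.82 ± 0.42 (adjusted p = 0.257). Hyou1, a nucleotide exchange factor of BiP, averaged 2.75 ± 0.514 FPKM in KO on WD and 1.99 ± 0.624 FPKM in WT on WD (log2 fold change 0.34 ± 0.19, adjusted p = 0.305). The co-chaperones Dnajb11 (-0.12 ± 0.20, adjusted p = 0.762) and Dnajc3 (0.20 ± 0.18, adjusted p = 0.523) had log2 fold changes on WD within about 1 SE of 0.

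Manf, an ER protein that binds BiP and is secreted under ER stress, was called in every comparison but WD against CD in WT. It was at 287, 296, 157 and 302 FPKM in KO on WD, against 66.9, 29.99, 127 and 128 FPKM in WT on WD. The levels on CD were 38.8, 77.1 and 17.7 FPKM in KO, against 213, 182 and 140.4 FPKM in WT. KO lay above WT on WD and below it on CD, and in both genotypes on WD the set 2 libraries were the low ones. The log2 fold change was 1.72 ± 0.47 on WD (adjusted p = 0.0443) and -2.19 ± 0.55 on CD (adjusted p = 0.0202).
The rise on WD held with library set as a term (1.41 ± 0.38, adjusted p = 0.0387), and the log2 fold change on CD was -0.95 ± 0.57 (adjusted p = 0.494). The call on WD was lost without any 1 of KO on WD 1, 2 or 4, WT on WD 1 or 2, KO on CD 1, or WT on CD 1, 3 or 4, with adjusted p from 0.0573 to 0.113 and log2 fold changes from 1.28 to 1.72. The annotated span of Manf, chr9:106838312-106891979 of GENCODE M21, overlaps Rbm15b on the same strand and Dcaf1 on the other, so reads of these genes could be counted for it. Creld2, the other secreted member, was under the filter and between 0 and 1.28 FPKM in all libraries.

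Among the disulfide isomerases, which form and reshuffle disulfide bonds, Pdia6 passed the test on CD and Pdia4 on WD when library set was a term. Pdia6 was at 62.7, 64.6, 45.0 and 62.2 FPKM in KO on WD, against 46.7, 29.1, 36.8 and 45.2 FPKM in WT on WD. On CD it was at 26.7, 38.2 and 20.1 FPKM in KO, against 67.5, 55.6 and 46.5 FPKM in WT. It fell in KO on CD, by 1.0 ± 0.26 on the log2 scale (adjusted p = 0.0218), and with library set as a term the log2 fold change there was -0.72 ± 0.33 (adjusted p = 0.356). On WD it was 0.57 ± 0.22 (adjusted p = 0.14), with KO and WT overlapping at their edge.
Pdia4 was at 39.6, 51.3, 51.1 and 34.5 FPKM in KO on WD, against 31.9, 59.3, 17.5 and 17.1 FPKM in WT on WD. In KO on CD it was at 37.9, 33.6 and 45.8 FPKM, against 19.5, 18.2 and 23.5 FPKM in WT on CD. On WD, WT library 2, of set 2, lay above every KO library. WT library 1, also of set 2, and the set 1 libraries of WT lay below every KO library. The log2 fold change on WD was 0.64 ± 0.32 (adjusted p = 0.248), 0.85 ± 0.24 with library set as a term (an adjusted p just under the threshold that rounds to 0.05) and 1.20 ± 0.20 within set 1 (adjusted p = 0.0179).
Pdia3, the isomerase that works with the lectin chaperones, had a log2 fold change on WD of 0.30 ± 0.22 (adjusted p = 0.438), and of 0.72 ± 0.15 within set 1 (adjusted p = 0.0466). P4hb, protein disulfide isomerase itself, averaged 2555 ± 243 FPKM in KO on WD and 2053 ± 354 FPKM in WT on WD (SD, n = 4 each), and the log2 fold change was 0.33 ± 0.15 (adjusted p = 0.211). The oxidases that recharge the isomerases, Ero1l (0.55 ± 0.19, adjusted p = 0.107) and Ero1lb (0.39 ± 0.22, adjusted p = 0.294), did not pass on WD either. These 6 genes all had a log2 fold change on WD above 0, as deposited and after quantile normalization or median centring.

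The lectin chaperones bind the sugars of unfolded glycoproteins. Canx, calnexin, was at 204, 175, 267 and 142 FPKM in KO on WD, against 171, 261, 93.5 and 106 FPKM in WT on WD. The levels on CD were 262, 142 and 401 FPKM in KO, against 147, 67.8 and 83.6 FPKM in WT. Its groups overlapped on both diets, and it passed on CD by a narrow margin (log2 fold change 1.38 ± 0.44, adjusted p = 0.0497; 0.49 ± 0.49 with library set as a term, adjusted p = 0.716).
Calr, calreticulin, averaged 372 ± 30.5 FPKM in KO on WD and 272 ± 49.3 FPKM in WT on WD (SD, n = 4 each). KO lay above WT there without overlap, at a log2 fold change of 0.46 ± 0.16 (adjusted p = 0.104), and within set 1 it was 0.73 ± 0.13 (adjusted p = 0.0245). The annotation holds a pseudogene, Calr-ps, that could share its reads.

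Of the 6 genes of ER-associated degradation and the translocon that could be tested, Sel1l alone passed a test, and none passed on WD. Sel1l, the adaptor of the Hrd1 ubiquitin ligase, was at 29.9, 30.9, 40.8 and 29.3 FPKM in KO on WD, against 31.1, 38.5, 29.6 and 28.3 FPKM in WT on WD. Its levels on CD were 38.1, 35.2 and 44.0 FPKM in KO, against 24.9, 25.4 and 25.3 FPKM in WT. KO lay above WT on CD (log2 fold change 0.61 ± 0.18, adjusted p = 0.0355), and with library set as a term it was 0.28 ± 0.19 (adjusted p = 0.56).
Herpud1, a degradation component widely used as a marker of the response, averaged 58.3 ± 10.8 FPKM in KO on WD and 70.4 ± 28.9 FPKM in WT on WD (SD, n = 4 each). The log2 fold change was -0.16 ± 0.35 on WD (adjusted p = 0.807) and -0.91 ± 0.40 on CD (adjusted p = 0.133). Edem1, which hands misfolded glycoproteins to degradation, had 0.27 ± 0.17 on WD (adjusted p = 0.346), and the membrane proteins Derl1 and Derl2 had 0.25 ± 0.24 and 0.25 ± 0.14 (adjusted p = 0.565 and 0.283). Sec61b, a subunit of the channel through which proteins enter the ER, had -0.51 ± 0.45 (adjusted p = 0.514).
Syvn1, which encodes Hrd1, and Derl3 were under the filter. Derl3 was listed at 0 in all CD libraries, and Syvn1 reached 1 FPKM in WT on WD 2 and KO on CD 3 alone.

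**Figure D3:**
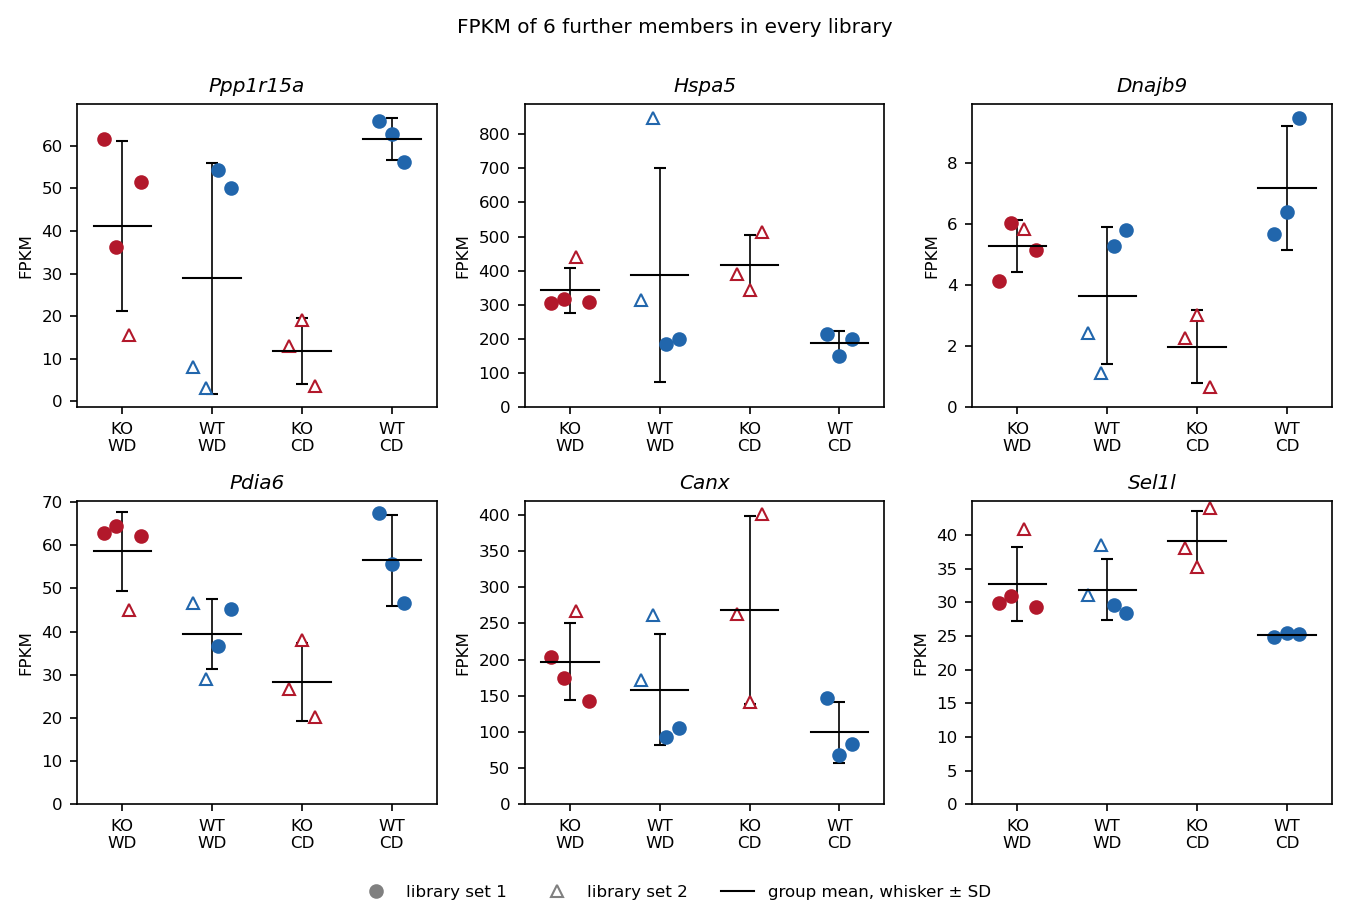
FPKM of Ppp1r15a, Hspa5, Dnajb9, Pdia6, Canx and Sel1l in each of the 14 libraries by group, KO in red and WT in blue; filled circles are library set 1, open triangles set 2, and the line and whisker are the group mean ± SD. In Ppp1r15a no set 2 library exceeds 19.0 FPKM and no set 1 library lies under 36.3 FPKM, whatever the group; on WD the 2 WT libraries of set 2 lie apart from those of set 1 in Ppp1r15a, Hspa5, Dnajb9, Canx and Sel1l.

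No member passed the test for the diet in WT, which does not show that none changed. For WD against CD in WT, 0 of 31 members were called with limma and 5 (16.1%) had an unadjusted p under 0.05, against 1.30% and 15.9% of all tested genes. In the fit with library set as a term the count was 0 and the share 0.699%, and within set 1 alone they were 0 and 0.461%. The member median log2 fold change was -0.11, and that of all tested genes 0.04. Values of Hsp90b1 were 174 ± 27.1 FPKM in WT on WD (SD, n = 4) and 215 ± 18.4 FPKM in WT on CD (n = 3), with a log2 fold change of -0.31 ± 0.21 (adjusted p = 0.47).

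In KO, 5 members rose on WD against CD and none fell: Manf (2.71 ± 0.51, adjusted p = 0.0144), Ern1 (1.58 ± 0.27, 0.00875), Atf3 (1.27 ± 0.26, 0.0199), Hsp90b1 (1.06 ± 0.21, 0.016) and Pdia6 (1.06 ± 0.24, 0.0268), each as a log2 fold change. Atf3 passed the filter through KO on WD alone and so had to differ here too, and without it 4 of 30 members rose. All tested genes were called in 6.38%, with 3.83% up and 2.55% down. After quantile normalization 6 members were called, all up, against 5.03% of all genes, and the all-gene split was 230 up and 317 down, against 416 up and 277 down as deposited. All KO libraries on CD belonged to set 2 and 3 of the 4 on WD to set 1. No member was called with library set as a term, 10 had an unadjusted p under 0.05, and of all genes 0.350% were called and 12.6% had such a p. The count of members was 1 without KO on CD 1, 1 without KO on CD 3, 9 without WT on WD 2 and 3 without KO on WD 2. In the same order, all-gene calls were 113, 148, 1767 and 143, against 693 with all libraries.

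The KO effect differed between the diets for Manf (log2 difference, WD minus CD, 3.91 ± 0.72, adjusted p = 0.0384) and Ern1 (2.10 ± 0.38, adjusted p = 0.036), against 0.340% of all tested genes. These comparisons share their libraries with those above. Hsp90b1 (1.37 ± 0.29) and Pdia6 (1.57 ± 0.34) each had an adjusted p of 0.0604. With library set as a term the log2 difference was 2.37 ± 0.74 for Manf (adjusted p = 0.784) and 1.82 ± 0.49 for Ern1 (adjusted p = 0.561), no member was called, 4 had an unadjusted p under 0.05, and of all genes 0.0184% were called and 6% had such a p. The count of members was 0 without any 1 of KO on WD 1, 2 or 4, WT on WD 1, or WT on CD 1, 3 or 4. It was 1 without any 1 of the 3 KO libraries on CD, 6 without WT on WD 3, 7 without WT on WD 4 and 5 without KO on WD 3. All-gene calls were 666 without WT on WD 3, 1058 without WT on WD 4 and 759 without KO on WD 3, against 37 with all libraries. They were 24, 9 and 12 without KO on CD 1, 2 and 3. Where the member count was 0, all-gene calls ran from 4 to 27.

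**Figure D4:**
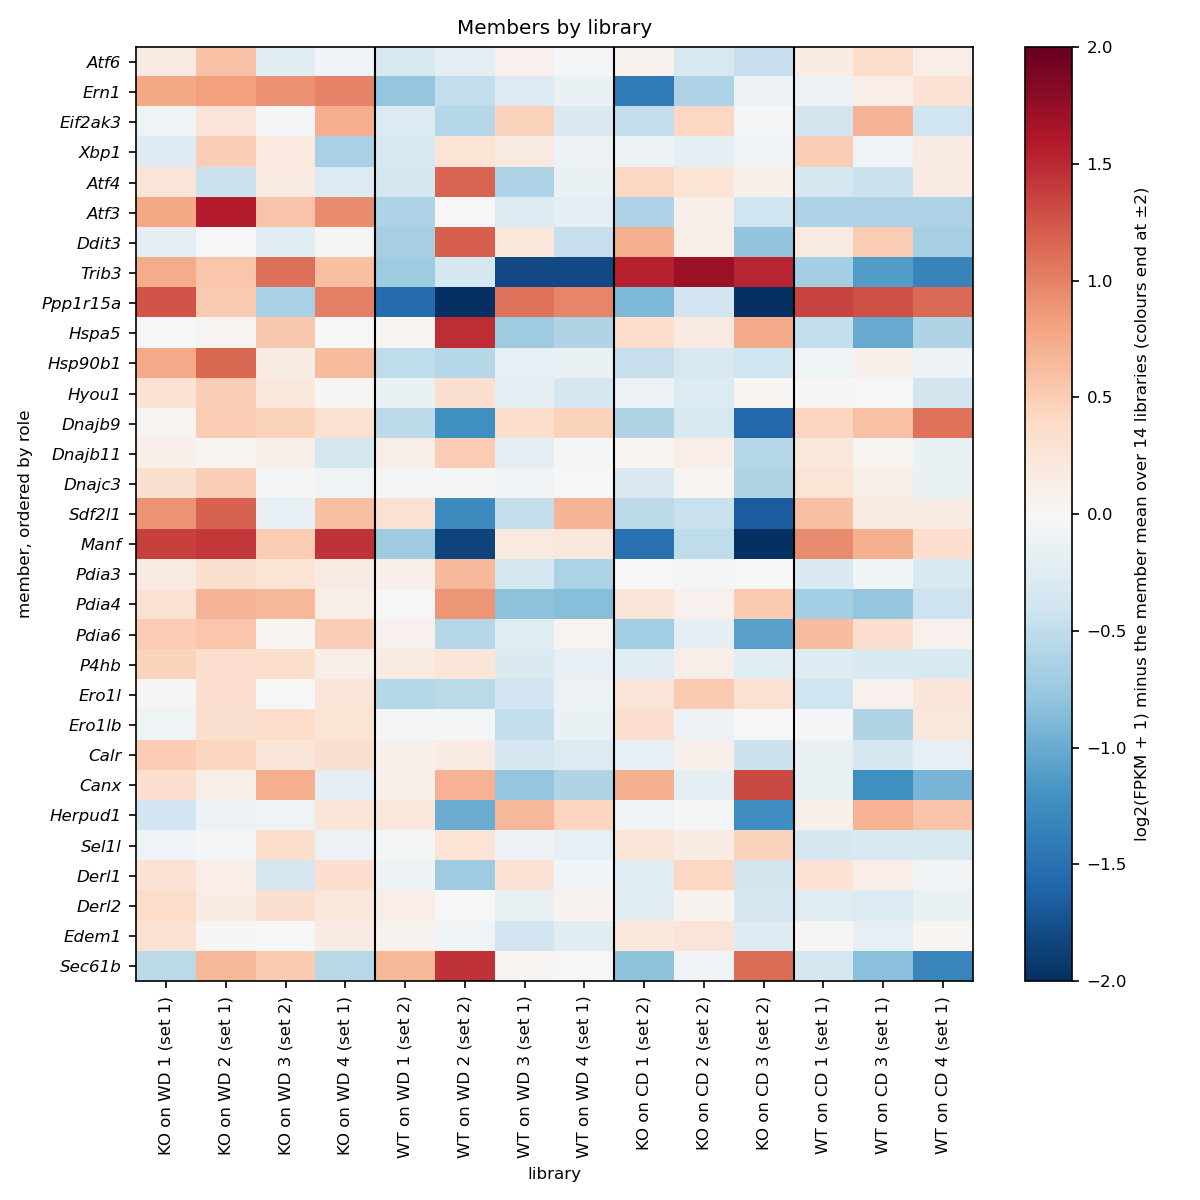
Log2(FPKM + 1) of the 31 tested members (rows, by role) in the 14 libraries (columns, by group), as the difference from the member's mean over all libraries; red is above and blue below that mean, and colours end at 2 in each direction. Ern1, Atf3, Hsp90b1 and Manf are red in all 4 KO libraries on WD; Ppp1r15a and Manf are bluest in WT on WD 2 and KO on CD 3, both of set 2.

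Of 126 other genes of the pathway, in 6 lists, 109 were tested; on WD 10 of them rose in KO and none fell, and 12 rose with library set as a term. The 10 calls are 9.17% of those tested, against 7.01% of all genes. With library set as a term 7.75% of all genes were called. After quantile normalization 4 rose and 1 fell (4.59%), and after median centring 3 rose and 1 fell (3.67%), against 4.78% and 4.20% of all genes. Prdx4, Fkbp11, Pdia5 and Eif2ak2 are the 4 that rose after quantile normalization, and Aars, an ATF4 target, is the gene that fell (-0.93, adjusted p = 0.0391). Of 26 other ER folding enzymes and cochaperones, 5 rose, led by Prdx4, a peroxiredoxin of the ER (log2 fold change 1.05, adjusted p = 0.00416), Fkbp11, a prolyl isomerase (1.26, adjusted p = 0.00746), and Pdia5, a disulfide isomerase (1.36, adjusted p = 0.00963). Fkbp11 averaged 51.0 ± 10.03 FPKM in KO on WD and 21.7 ± 8.47 FPKM in WT on WD (SD, n = 4 each), and all KO libraries lay above all WT libraries. On CD, Fkbp11 averaged 40.0 ± 2.89 FPKM in KO and 12.6 ± 1.93 FPKM in WT (n = 3 each). As deposited, of 17 translocation and signal peptidase genes Spcs2, a signal peptidase subunit, rose (1.09, adjusted p = 0.04), and of 13 glycosylation genes Stt3a, a catalytic subunit of the oligosaccharyltransferase, rose (1.03, adjusted p = 0.0377), but neither was called after quantile normalization or median centring.
Of 18 targets of ATF4 and CHOP, 2 rose on WD: Shmt2, a mitochondrial enzyme of one-carbon metabolism (0.67, adjusted p = 0.0286), and Slc3a2, the heavy chain of amino acid transporters (0.77, adjusted p = 0.0377). Neither was called after quantile normalization (0.42, adjusted p = 0.153, and 0.52, adjusted p = 0.184) or median centring (0.38, adjusted p = 0.242, and 0.48, adjusted p = 0.205), where Aars was lower and the 1 target called. Of 17 genes of signalling and the ATF6 family, Eif2ak2, the kinase PKR, which responds to double-stranded RNA and phosphorylates the same factor as PERK, rose (1.64, adjusted p = 0.000293). In ER-associated degradation 0 of 18 genes were called on WD with limma, 7 had an unadjusted p under 0.05 (23.4% of all genes did), and 1 was called with library set as a term.
On CD, 18 of the 109 were called higher in KO and 3 lower (19.3%, against 15.0% of all genes). With library set as a term none of the 109 was called, against 1.16% of all genes. The split was 4 higher and 6 lower after quantile normalization, and 8 higher and 6 lower after median centring. The 4 higher genes after quantile normalization were Fkbp11, Rnf185, Sars and Sesn2. By smallest p in their lists, the calls on CD included Sars (1.48), Sesn2 (1.29) and Atf5 (1.24) among ATF4 and CHOP targets, Os9 (0.81), Rnf185 (0.94) and Vcp (0.79) in degradation, and Fkbp11 (1.60), Sdf4 (1.01) and Qsox1 (1.41) among folding enzymes, as log2 fold changes in KO. Sec61a1 (0.96), Rpn2 (0.78), Stt3b (0.91) and Nfyb (0.97) were higher in KO as well, and Spcs3 was lower (-2.45). Asns, asparagine synthetase and an ATF4 target, fell on WD against CD in WT by 2.55 on the log2 scale (adjusted p = 0.0145) and in KO by 2.01 (adjusted p = 0.0259). Its mean was 0.986 ± 0.673 FPKM in KO on WD, 0.402 ± 0.477 in WT on WD with 1 library listed at 0, 7.98 ± 6.56 in KO on CD and 7.39 ± 3.45 in WT on CD (SD).
In WT, Spcs1 fell on WD as well (-1.58, adjusted p = 0.043). With library set as a term Asns kept its call in WT (-2.58, adjusted p = 0.0425) and Spcs1 did not. For WD against CD in KO, 11 of the 109 were called higher and 5 lower (8 and 6 after quantile normalization, 9 and 8 after median centring), led in their lists by Ssr1 (0.99), Ssr3 (1.69), Serp1 (1.87), Mcfd2 (0.68), Eif2ak2 (1.08) and Creb3l1 (1.06) upward and by Rnf185 (-0.95), Vcp (-0.80) and Eif4ebp1 (-0.75) downward. Of all tested genes 3.83% were called up and 2.55% down as deposited, and 5.03% in either direction after quantile normalization. After median centring 301 of 10870 genes were called up and 631 down. None of the 109 was called for WD against CD in KO with library set as a term, against 0.350% of all genes. For the difference between the diets none was called in either fit, against 0.340% of all genes, and 0.0184% with that term.

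Markers of other liver cells moved with some of these results. Of 9 macrophage and Kupffer cell markers, 8 were tested and 4 rose in KO on WD: Clec4f (1.25, adjusted p = 0.00608), C1qc (1.35, adjusted p = 0.0147), Vsig4 (1.10, adjusted p = 0.0226) and Cd68 (1.09, adjusted p = 0.0422). After quantile normalization or median centring 2 of the 8 rose, and 3 with library set as a term. Their summed level ran from 187 to 333 FPKM in KO on WD, 84.3 to 169 in WT on WD, 106 to 228 in KO on CD and 52.8 to 83.0 in WT on CD. Their part in the member results was not tested. Plasma and B cells, which are rich in ER chaperones, had 9 markers with a sum of 10.03 to 29.9 FPKM in KO on WD, 9.24 to 21.3 in WT on WD, 3.43 to 11.7 in KO on CD and 3.34 to 9.09 in WT on CD, where 1 marker was listed at 0 throughout and 0 of the 4 tested were called. This sum mostly follows Ighm, which averaged 15.4, 10.2, 5.52 and 3.75 FPKM in these groups. No other marker of the list averaged above 1.39 FPKM in a group (Cd79b in KO on WD). In bulk liver, fewer cells of a type and less RNA per cell cannot be told apart.
Of the remaining lists, endothelial markers summed to 61.5 to 98.5 FPKM in KO on WD, 43.5 to 68.7 in WT on WD, 72.0 to 91.6 in KO on CD and 41.9 to 49.6 in WT on CD, with Lyve1 higher in KO on WD (1.5, adjusted p = 0.0128). Stellate cell markers gave 0 calls of 5 tested in KO against WT on either diet, and T cell, natural killer cell and neutrophil markers gave none of 3. Of the bile duct markers, 1 of 2 tested was called on WD, Sox9 (0.82, adjusted p = 0.0357), and none with library set as a term, quantile normalization or median centring. Lyve1 (1.22, adjusted p = 0.0423) and Stab2 (1.14, adjusted p = 0.00967) were higher in KO on CD too, as was Clec4f (adjusted p = 0.0277). With library set as a term, no endothelial or macrophage marker was called on CD, where set and genotype cannot be told apart. For WD against CD in KO, the stellate cell markers Lrat (1.14, adjusted p = 0.0242) and Col3a1 (1.63, adjusted p = 0.0357) rose, and the hepatocyte marker Ttr fell by 0.77 (adjusted p = 0.0335). No stellate cell or hepatocyte marker was called for this comparison with library set as a term.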

How the data were processed

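Total RNA (500 ng) from Trizol extracts was made into stranded QuantSeq 3' FWD libraries and sequenced on a NovaSeq, per the labels' protocols. The authors deposited FPKM values (fragments scaled to transcript length and library total) for 43548 genes in 14 libraries. The submitters' processing notes list Cufflinks and build mm10 and give no version. Aligner, annotation, strand setting and the treatment of reads with several matches: not given in the sources used here. A 3' tag does not scale with transcript length, so FPKM was compared between libraries only, for a gene or for the sum of a marker list. Without counts the depth is unknown and no counting interval was given. An exact 0 can be a failed estimate and is said to be listed at 0.

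The test was limma 3.58.1 (R 4.3.3) on log2(FPKM + 1), with eBayes and a trend (1 mean per group, all 14 libraries, 10 residual degrees of freedom). It ran over the 10870 genes that reached 1 FPKM in 3 or more libraries, with two-sided p adjusted by Benjamini-Hochberg within a comparison and calls at adjusted p under 0.05. Adjusted p-values are limma's throughout. On this scale, log2(FPKM + 1), changes of low genes are understated. The fit was tested on simulated data. Yam1 was left out, since 8 libraries gave it the value 999999999. No libraries were copies (highest correlation between them 0.958).

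Library sets came from average-linkage clustering of the share of rarely detected genes (in at most 8 libraries) whose FPKM ratio between 2 libraries fell in 1 window of 0.004 on the log2 scale. The tree was cut into 2 sets by a setting, so the data did not give that number. The median share was 7.08% within set 1, 4.78% within set 2 and 2.63% between them. These shares are what was clustered, so higher shares within sets were built in and do not test the split. What the sets stand for is not known. Levels per library are given for every member called in a comparison and for the sensors, Xbp1, Atf4, Ddit3, Hspa5 and Hsp90b1. Of other pathway genes, up to 3 called genes with the smallest p per list and comparison are named. Ppp1r15a and Pdia4 were added after their values were seen, as were the cell type markers named. Of the listed genes 7 were matched by their Ensembl ID. The members and lists were chosen with earlier results of these data known. Alternatives were another pseudocount (0.1), no filter, quantile normalization, median centring, library set as a term, a replicate block, eBayes without a trend, set 1 alone on WD and leaving out each library. Set 2 alone, set 1 alone for the diet in WT, and the set term with quantile normalization were added after seeing the data.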

Additional observations from a re-analysis of the deposited data

Results flagged for a closer look

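In 5 of 62 groups of 4 libraries, 1 library lay further from the others than Dixon's 95% limit for the group allows, and chance gives about 1 in 20. In KO on WD, library 3 was the highest in Hspa5 (441 FPKM) and Sel1l (40.8 FPKM) and the lowest in Manf (157 FPKM) and Pdia6 (45.0 FPKM). This library is the 1 library of set 2 in its group. In WT on WD, library 2, also of set 2, was the highest in Atf4 (25.3 FPKM). The part of the library set in these values was not tested per library.

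The KO effect differed between the diets in Ern1 (log2 difference, WD minus CD, 2.10) and Manf (3.91) by limma's interaction test. With library set as a term neither passed the test.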

How the results depend on the processing

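Without 1 library, the members called numbered 1 to 10 for KO against WT on CD, 4 to 5 on WD, 0 to 0 for WD against CD in WT, 1 to 9 in KO and 0 to 7 for the difference between the diets. All-gene calls then ran from 591 to 2466 on CD and from 442 to 801 on WD. They ran from 40 to 141 for the diet in WT, 113 to 1767 in KO and 4 to 1058 for the difference. Members called on CD, 6 as reported, were 1 under the library set term and 0 when quantile normalization was added. All-gene calls there were 126 and 84, against 1633. On WD, 5 as reported, members called were 3 with a pseudocount of 0.1 and 8 in set 1 alone. All-gene calls there were 638 of 10870 and 334 of 9975, against 762 of 10870. For the diet in KO, 5 as reported, members called were 0 with the set term and 1 with quantile normalization added. All-gene calls there were 38 and 35, against 693. Set 2 alone, with 1 KO library on WD, cannot show whether these calls hold. For the difference, 2 as reported, members called were 0 with a pseudocount of 0.1 and with no filter. They were also 0 with the set term, alone or with quantile normalization. All-gene calls there were 24, 21, 2 and 2 in that order, against 37. Sel1l on CD reversed to -0.03 with the set term and quantile normalization. On WD, Trib3, Hsp90b1 and Ern1 kept their call in 23 of 24 alternatives and Manf in 8 of 24. Set 2 alone, where the other call was lost, has 1 KO library on WD and called 15 of 9225 genes. Atf3 passed the filter through KO on WD alone, so its calls say nothing about stability. The cause of these changes was not tested. Replicate numbers do not pair the libraries: deviations of same-numbered libraries correlated between -0.297 and 0.158. With the replicate block, members called were 1 on CD, 2 for the diet in KO and 0 for the difference. Over all tested genes the block gave 586 calls on CD, 530 on WD, 60 for the diet in WT, 85 in KO and 4 for the difference, against 1633, 762, 141, 693 and 37. With no filter all-gene calls were 1114, 607, 97, 351 and 21 of 19683. Library depth is unknown and limits members near 1 FPKM, such as Eif2ak3, Atf3 and Ddit3.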
